A study of Mus musculus with 18 samples.

Results

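Mouse livers were compared at the 2 ends of the energy supply that the study set: the HF diet without any restriction, and the LF diet with CR. HF, LF and CR are read here as high-fat diet, low-fat diet and calorie restriction, since the labels give the abbreviations alone. The comparison used 6 of the 18 small-RNA libraries of the series, 3 from HF livers and 3 from LF+CR livers. It covered the 351 miRNAs, of 758 listed, with at least 5 RPM, the reads of a miRNA scaled to the size of its library, in at least 3 of the 18 libraries. All mice were C57BL/6J wild types, put on their regimen when 5 weeks old, and their livers were taken when they were 62 weeks old. The LF and HF+CR groups, 3 libraries each, differ from each end by 1 of the 2 factors and are given beside them. The exercised groups, LF+Ex and HF+Ex, entered the fit and are shown in 1 plot only. Because HF and LF+CR differ in diet and in restriction at once, those effects cannot be told apart between the 2 ends. The labels do not say that the replicates came from separate animals, so p-values measure the spread between these libraries, which may be technical.

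A miRNA is a short RNA, cut from a hairpin, that guides an Argonaute protein to messenger RNAs and lowers their translation or stability. Its seed, bases 2 to 8 from the 5′ end, sets most of its targets, so miRNAs with the same seed form a family. In liver, miR-122 of hepatocytes makes up much of the miRNA pool, miR-34a is a p53-induced miRNA that represses Sirt1, the miR-29 family represses collagens, and miR-103 and miR-107 are known for lowering insulin sensitivity. Leukocytes, stellate cells and epithelium of the bile ducts bring miRNAs of their own to a whole-liver sample.

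The mature sequences of the miRNAs on which the results turn are shown first, with the seed in capitals, from RefSeq on GRCm38.p6. RefSeq held a match for 293 of the 351 tested miRNAs and for 65 of the 78 that passed the test. miR-205-5p and miR-34a-5p, which had the largest increases among the miRNAs that passed, do not share a seed with each other. miR-148b-3p is shown with its family members miR-148a-3p and miR-152-3p, because it moved apart from them. Among the matched miRNAs, 34 seeds were shared by tested miRNAs. Only 2 of these seeds had members that all passed, that of miR-212-3p with miR-132-3p and that of miR-103-3p with miR-107-3p. The miR-29 family and the pair miR-182-5p and miR-96-5p stand for the miRNAs that were lower in HF, and miR-10b-5p is set beside miR-10a-5p, which has the same seed and the opposite sign.
miR-205-5p: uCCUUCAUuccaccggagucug
miR-34a-5p: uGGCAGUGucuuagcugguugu
miR-148b-3p: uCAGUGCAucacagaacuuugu
miR-148a-3p: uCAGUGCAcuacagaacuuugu
miR-152-3p: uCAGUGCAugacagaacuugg
miR-212-3p: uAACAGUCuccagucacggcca
miR-132-3p: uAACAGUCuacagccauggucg
miR-103-3p: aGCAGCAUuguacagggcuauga
miR-107-3p: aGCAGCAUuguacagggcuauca
miR-29a-3p: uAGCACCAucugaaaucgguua
miR-29b-3p: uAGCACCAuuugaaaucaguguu
miR-29c-3p: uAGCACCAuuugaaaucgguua
miR-182-5p: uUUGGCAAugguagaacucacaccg
miR-96-5p: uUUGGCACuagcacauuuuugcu
miR-10b-5p: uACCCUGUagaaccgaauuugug
miR-10a-5p: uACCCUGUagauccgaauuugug
miR-182-5p and miR-96-5p differ at the last base of the seed, so they fall into separate families by this definition.

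The HF libraries held 6.36, 4.05 and 6.28 megareads on listed miRNAs and the LF+CR libraries 7.70, 6.16 and 5.12 megareads, as implied by the RPM steps. The 10 most abundant miRNAs took 60.9 ± 1.96% of the listed RPM in HF and 67.9 ± 1.57% in LF+CR (SD, n = 3 each). The groups did not overlap in that share, and an exact permutation test of 3 against 3 cannot go below the p of 0.1 that it gave. A gain in the share of a few abundant miRNAs lowers the RPM of all others, so many results below are also given after rescaling. The rescaling used median-of-ratios size factors and shifted the median difference by 0.38 on the log2 scale. Single libraries stood apart on lists of markers. LF+CR 1 had a summed RPM of 349 for the pancreatic markers, against 3.57 to 13.3 in the other 5 libraries, and HF 2 had a summed RPM of 120 for entries that resemble fragments of other RNAs, against 28.6 to 41.4 in the others.

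Between the 2 ends, 78 of 351 miRNAs passed the test (22.2%), of which 71 were higher in HF (20.2% of those tested) and 7 were lower (1.99%). The test was limma on log2(RPM + 1), with Benjamini-Hochberg adjustment over the 351 and a threshold of 0.05. The higher miRNAs included miR-34a-5p, which p53 is known to induce, the leukocyte miRNAs miR-155-5p, miR-223-3p and miR-342-3p, and miR-212-3p and miR-132-3p of 1 cluster. The lower ones were miR-10b, miR-1a, miR-182, miR-96, miR-184, miR-29a and miR-29c. The log2 difference of the 71 ran from 0.49 to 3.33 with a median of 0.85, against a median of 0.36 over all miRNAs tested, and that of the 7 from -2.49 to -0.43. After rescaling, 43 miRNAs passed, 21 higher (5.98%) and 22 lower (6.27%), so that the share of higher miRNAs among those called fell from 91% to 48.8%. All 21 and all 7 of the calls shared by both scalings had the same sign in each, and all 71 kept a difference above 0 after rescaling. Rescaling lowered the median difference by 0.38, less than the smallest of the 71, so these signs could hardly change and lend no support. Leaving out LF+CR 1 left 15 calls, all higher, and leaving out HF 2 also left 15, all higher, with 12 miRNAs in common. Without HF 3 there were 48 calls, 43 of them higher, and without HF 1 the number of lower calls fell to 1. The 78 differences kept their sign without LF+CR 1 and without HF 2. For the 73 of them whose groups did not overlap, that outcome was fixed in advance. Over all 351 miRNAs, the groups did not overlap for 41.6% with HF above and for 6.27% with HF below.

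**Figure D1:**
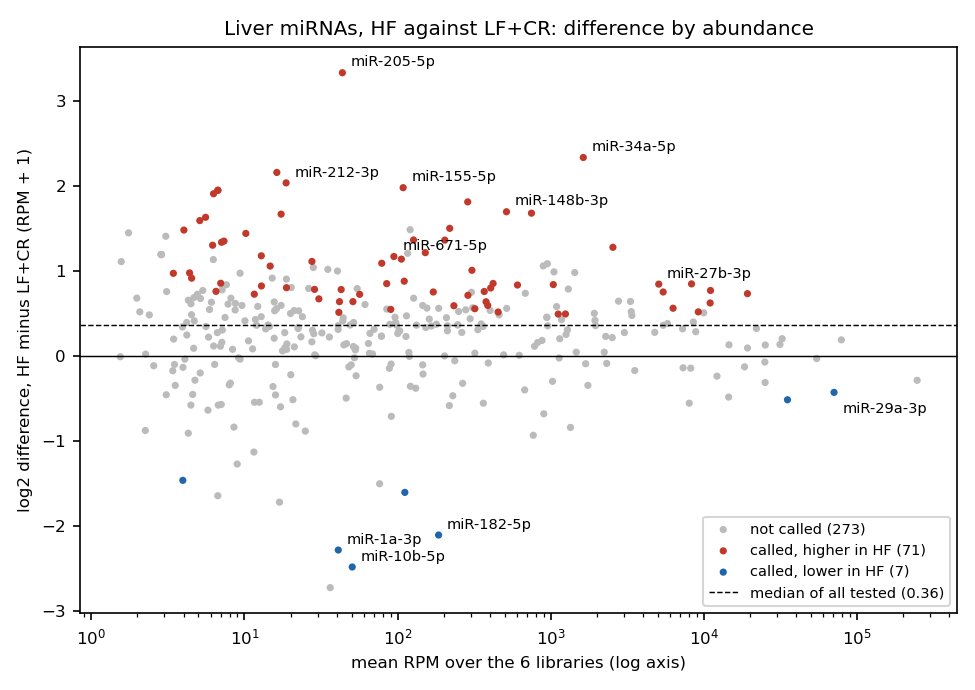
Each point is 1 of the 351 miRNAs, with its mean RPM over the 6 libraries on the x axis (log axis) and the HF minus LF+CR difference of log2(RPM + 1) on the y axis; red and blue points passed the test. The cloud lies above 0, at a median of 0.36, and rescaling moves that median to -0.02.

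miR-205-5p, an epithelial miRNA that represses Zeb1 and Zeb2, showed the largest increase. It is cut from Mir205 at chr1:193507463-193507530 on the minus strand, in an exon of the long non-coding RNA 4631405K08Rik. Its level was 73.7, 103 and 63.2 RPM in the HF libraries and 5.04, 5.52 and 11.4 RPM in the LF+CR libraries. Every HF library was thus several times above every LF+CR library. The log2 difference was 3.33 (SE 0.70, adjusted p = 0.00804), and 2.97 after rescaling. It passed in each of the 6 fits that left out 1 library, but not when LF+CR 1 was left out after rescaling (adjusted p = 0.0518). The LF and HF+CR means, 18.5 ± 8.46 and 25.4 ± 26.6 RPM (SD, n = 3), lay between the 2 ends.

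miR-34a-5p had the second-largest increase, at a far higher level. Mir34a lies at chr4:150068454-150068555 on the plus strand, in an exon of Gm37795. HF livers gave 2501, 3259 and 2341 RPM and LF+CR livers 387, 470 and 814 RPM. The groups did not overlap, and the log2 difference was 2.33 (SE 0.50, adjusted p = 0.00888), or 1.94 after rescaling. The other arm of the hairpin, miR-34a-3p, was higher by 1.63 (SE 0.47, adjusted p = 0.0213), although that call held in 2 of the 6 fits without 1 library. miR-34c-5p, the other family member tested, differed by 0.27 and was not called. The LF livers, at 2206 ± 1147 RPM, were near the HF level, and HF+CR livers were at 1570 ± 1221 RPM, each with a wide spread.

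miR-148b-3p rose apart from its family. It comes from Mir148b at chr15:103285125-103285221 on the plus strand, in an intron of Copz1, which encodes a coatomer subunit. The HF libraries had 682, 811 and 841 RPM and the LF+CR libraries 194, 197 and 354 RPM. The difference was 1.70 (SE 0.26, adjusted p = 0.00131), and 1.30 after rescaling, and it was called under all 19 alternatives. miR-148a-3p, an abundant hepatocyte miRNA, differed by 0.32 (adjusted p = 0.281) and miR-152-3p by 0.23 (adjusted p = 0.422), and neither was called. A ratio within a library does not depend on its scaling, and miR-148b-3p made up 2.17, 3.33 and 3.23% of the summed RPM of the 3 family members in HF against 1.12, 1.08 and 1.13% in LF+CR. The groups did not overlap in that share, and the LF+CR libraries had nearly the same share while their family sum ranged from 17337 to 31250 RPM. The sequences above differ at few bases, and how reads were assigned among near-identical copies is not given in the sources used here, so the split between the 3 is uncertain.

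miR-212-3p and miR-132-3p are cut from neighbouring hairpins, Mir212 at chr11:75173388-75173478 and Mir132 at chr11:75173682-75173747, both on the plus strand within an intron of 1700016P03Rik. The cluster is known for its induction by the transcription factor CREB. miR-212-3p stood at 25.4, 43.8 and 23.4 RPM in HF and 5.54, 6.46 and 7.59 RPM in LF+CR, a log2 difference of 2.04 (SE 0.49, adjusted p = 0.0138). miR-132-3p, with the same seed, stood at 4.41, 9.04 and 5.86 RPM in HF and 2.01, 1.1 and 1.71 RPM in LF+CR, a difference of 1.48 (SE 0.45, adjusted p = 0.027). Neither overlapped between the groups. HF 2 was the highest library for both, and neither call held without HF 2 or without LF+CR 1, where the differences were 1.76 and 1.24, and 1.94 and 1.59, respectively. The miR-132-3p call was also lost with no filter, without LF+CR 2 and without HF 3, and held in 2 of the 6 fits without 1 library. After rescaling, miR-212-3p was called at 1.68 and miR-132-3p was not, at 1.20 (adjusted p = 0.0578).

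Several miRNAs of low or moderate level were called in each of the 6 fits that left out 1 library. miR-671-5p had the smallest adjusted p of all and is named for that after its values were seen. Its hairpin, Mir671 at chr5:24592114-24592211 on the plus strand, lies in an exon of Chpf2. The level was 118, 146 and 130 RPM in HF and 53.5, 57.0 and 62.6 RPM in LF+CR, a log2 difference of 1.17 (SE 0.15, adjusted p = 0.000433). miR-574-5p, from an intron of Fam114a1, was at 27.2, 30.5 and 21.7 RPM in HF and 4.91, 6.46 and 13.3 RPM in LF+CR, higher by 1.67 (SE 0.31, adjusted p = 0.00398). In the repeated hairpins of an intron of Sfmbt2, miR-669o-3p and miR-669a-3p had identical values in every library and are 1 measurement, at 8.05, 13.8 and 11.9 RPM in HF and 3.02, 1.58 and 1.90 RPM in LF+CR (1.95, SE 0.41, adjusted p = 0.00804). miR-1839-3p, whose hairpin overlaps an annotated small Cajal body RNA, was higher by 1.59 (SE 0.27, adjusted p = 0.00188). In all of these the HF libraries lay above the LF+CR libraries without overlap, as in 41.6% of all tested miRNAs. Groups did not overlap for 73 of the 78 called miRNAs, so this adds little. Over the alternatives the log2 difference ran from 1.06 to 2.04 for miR-574-5p and from 1.17 to 2.28 for miR-669a-3p. For miR-1839-3p it ran from 0.90 to 1.98.

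Counting miR-669a-3p and miR-669o-3p singly, 12 miRNAs were called in each of the 6 fits that left out 1 library. They were miR-148b-3p, miR-1839-3p, miR-205-5p, miR-27b-3p, miR-335-5p, miR-34a-5p, both arms of miR-423, miR-574-5p, miR-669a-3p, miR-669o-3p and miR-671-5p. Of these, 11 were also called after rescaling. When LF+CR 1 was also left out of the rescaled fit, 4 miRNAs were called higher in all, and miR-205-5p, miR-34a-5p (adjusted p = 0.0581) and miR-574-5p (adjusted p = 0.0518) were not among them. The 1 of the 12 that was not called after rescaling with all libraries was miR-27b-3p, known as a regulator of lipid metabolism genes. It was higher by 0.84 (adjusted p = 0.00188) as deposited and by 0.45 (adjusted p = 0.0996) after rescaling. The arms of miR-423, named for this after their values were seen, were higher by 1.36 (5p) and 1.21 (3p). miR-335-5p, from an intron of the imprinted gene Mest, stood at 226, 160 and 164 RPM in HF and 75.9, 57.2 and 78.2 RPM in LF+CR, higher by 1.36 (SE 0.29, adjusted p = 0.00898).

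**Figure D2:**
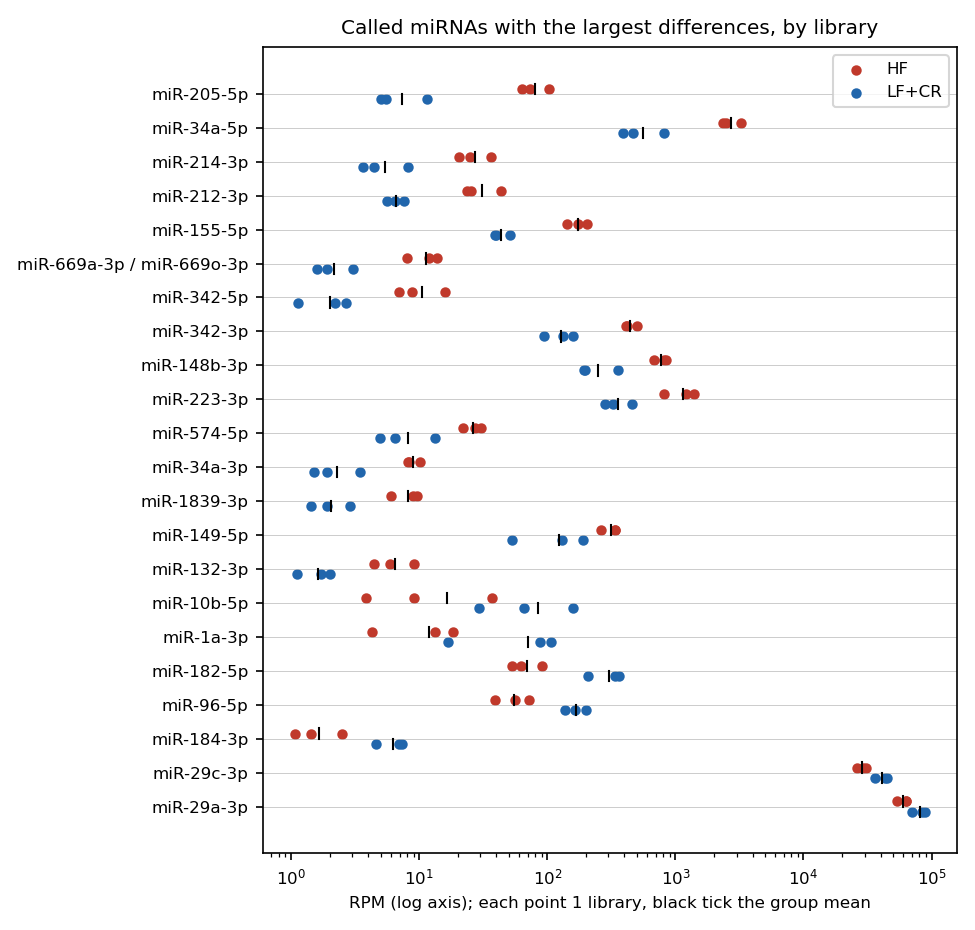
RPM on a log axis for the named miRNAs that passed the test, with 1 point per library (HF red, LF+CR blue) and a tick at each group mean. The HF points of miR-205-5p, from 63.2 to 103 RPM, lie above its LF+CR points, from 5.04 to 11.4 RPM, while miR-10b-5p and miR-1a-3p overlap between groups.

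The leukocyte and Kupffer cell markers were above 0 in HF for all 10 tested members, as were 75.2% of all tested miRNAs. Their median log2 difference was 1.24 against 0.36 over all miRNAs, and 4 were called, all higher (background 20.2%). miR-155-5p, induced in activated macrophages and lymphocytes, stood at 174, 205 and 142 RPM in HF and 51.1, 39.7 and 38.9 RPM in LF+CR (1.98, SE 0.54, adjusted p = 0.0186). miR-223-3p, a myeloid miRNA most abundant in neutrophils, stood at 1389, 1215 and 817 RPM in HF and 282, 326 and 454 RPM in LF+CR (1.68, SE 0.49, adjusted p = 0.0213). miR-342-3p, from an intron of Evl, stood at 414, 499 and 421 RPM in HF and 94.4, 158 and 133 RPM in LF+CR (1.81, SE 0.50, adjusted p = 0.0195). The fourth was miR-142-3p, of all blood cell lineages, higher by 1.28 (adjusted p = 0.0195). All 4 were also called higher after rescaling (background 5.98%), with 8 of 10 members above 0 (47.9% of all tested) and a list median of 0.85. None of the 4 was called without LF+CR 1 or without HF 2, where the list medians were 1.28 and 1.19. The miR-223-3p call was also lost without LF+CR 2 and without HF 1. The members that lay nearest 0 were miR-511-3p at 0.01 and miR-511-5p at 0.22, from an intron of the macrophage receptor gene Mrc1, and neither was called. The summed RPM of the list ran from 6709 to 8566 in HF and from 2847 to 3584 in LF+CR. In whole liver, more cells of a type and more RNA per cell cannot be told apart.

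Among the 9 tested stellate and mural cell markers, only the arms of miR-214 were called higher, a share near the background of 20.2%. The list median was 0.45, or 0.06 after rescaling. Mir214 lies at chr1:162223368-162223477 on the plus strand in Dnm3os, a non-coding transcript that also carries a miR-199a hairpin. miR-214-3p was at 20.4, 36.2 and 24.8 RPM in HF and 3.65, 4.41 and 8.16 RPM in LF+CR, so that the groups did not overlap (2.16, SE 0.51, adjusted p = 0.0124). miR-214-5p was higher by 1.44 (adjusted p = 0.0183). After rescaling both arms were called higher (background 5.98%), miR-214-3p at 1.81 and miR-214-5p at 1.10. miR-199a-5p differed by 1.06 (adjusted p = 0.080) and miR-199a-3p by 0.45, without a call. miR-143-3p, the most abundant member of the list, had a difference of -0.56 (adjusted p = 0.0571) as deposited and was called lower after rescaling, at -0.95. Neither arm of miR-214 was called without LF+CR 1 or without HF 2.

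Of the 7 miRNAs that were called lower in HF (1.99% of those tested), the sensory and epithelial cluster miR-183/96/182 gave 2. Mir182 lies at chr6:30165918-30165992 and Mir96 at chr6:30169446-30169551, both on the minus strand. miR-182-5p was at 53, 62.6 and 91.1 RPM in HF and 335, 359 and 209 RPM in LF+CR, a log2 difference of -2.11 (SE 0.50, adjusted p = 0.0124). miR-96-5p was at 39.0, 55.4 and 71.2 RPM in HF and 201, 165 and 137 RPM in LF+CR, a difference of -1.61 (SE 0.48, adjusted p = 0.0249). In both, each HF library lay below each LF+CR library (background 6.27%), and neither was called without LF+CR 1 or without HF 2. miR-182-5p was called in 17 of 19 alternatives and miR-96-5p in 13 of 19. The third member, miR-183-5p, had a difference of -1.51 (adjusted p = 0.0567) and was called after rescaling, at -1.89. On the list of 10 epithelial and biliary markers, miR-205-5p was the only member called higher (background 20.2%). Of that list 2 were called lower (background 1.99%), and 3 were called lower after rescaling (background 6.27%). The miR-200 family members and miR-141-3p were not called, with values between -0.71 (miR-200c-3p) and 0.02 (miR-429-3p).

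The miR-29 family was lower in HF by small amounts at very high level. miR-29a-3p, from Mir29a at chr6:31062660-31062747 on the minus strand, stood at 53736, 62747 and 63667 RPM in HF and 83538, 89703 and 70139 RPM in LF+CR (-0.43, SE 0.13, adjusted p = 0.0214). miR-29c-3p, from Mir29c at chr1:195037547-195037634 on the plus strand, stood at 26285, 30878 and 29244 RPM in HF and 43175, 44799 and 36012 RPM in LF+CR (-0.52, SE 0.15, adjusted p = 0.0213). The groups did not overlap for either (background 6.27%). miR-29b-3p, which is cut from a hairpin beside each of them, had a difference of -0.13 and was not called. Of the 3 tested members, 2 were thus called lower (background 1.99%). After rescaling the differences were -0.82 for miR-29a-3p and -0.91 for miR-29c-3p, both called (background 6.27%). Neither was called without LF+CR 1 or without HF 2, and of 19 alternatives the call held in 13 for miR-29a-3p and 11 for miR-29c-3p.

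Among the called miRNAs, miR-10b-5p and miR-1a-3p had the most negative differences, and both overlapped between the groups. The islet miRNA miR-375-3p was lower still, at -2.73, and was not called (adjusted p = 0.0931), with 199 RPM in LF+CR 1 against 1.82 to 9.11 RPM in the other 5 libraries. miR-10b-5p, from Mir10b at chr2:74726070-74726137 on the plus strand in an intron of Hoxd3 and Hoxd4, was at 9.11, 3.81 and 36.7 RPM in HF and 158, 29.2 and 66.0 RPM in LF+CR. HF 3 lay above LF+CR 2, so the groups overlapped (-2.49, SE 0.72, adjusted p = 0.0214). miR-10a-5p, which has the same seed, had a difference of 0.50 (adjusted p = 0.0854). The muscle miRNA miR-1a-3p was at 13.2, 4.28 and 18.2 RPM in HF and 106, 16.7 and 86.9 RPM in LF+CR, again with overlap (-2.29, SE 0.78, adjusted p = 0.0456). The muscle markers summed to between 8.33 and 26.2 RPM in HF and to 147.8, 25.4 and 111 RPM in LF+CR, and their part in this result was not tested. miR-184-3p, known from the lens and cornea, was at 1.06, 1.43 and 2.47 RPM in HF and 7.30, 6.93 and 4.55 RPM in LF+CR (-1.47, SE 0.43, adjusted p = 0.0218). None of these 3 was called without LF+CR 1 or without HF 2. miR-1a-3p was called in 8 of 19 alternatives and 1 of the 6 fits without 1 library. It also missed the threshold with a pseudocount of 5 RPM, with no filter, with no intensity trend and with voom weights. miR-10b-5p was called in 14 of 19 and miR-184-3p in 13 of 18.

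Of 20 tested miRNAs with reported roles in lipid and sterol metabolism, 7 were higher (background 20.2%), 1 was lower (background 1.99%), and the list median was 0.49, or 0.11 after rescaling. Besides miR-205-5p, miR-34a-5p, miR-223-3p, miR-27b-3p and miR-335-5p, the higher ones were both arms of miR-378a, which is encoded in Ppargc1b. miR-378a-3p was at 9950, 18363 and 13504 RPM in HF and 6451, 10495 and 7372 RPM in LF+CR, so that HF 1 lay below LF+CR 2 (0.77, SE 0.24, adjusted p = 0.0282). Neither arm was called after rescaling, where 4 of the list were higher (background 5.98%) and 1, miR-96-5p, was lower (background 6.27%). miR-33-5p, the intronic miRNA of Srebf2 that represses Abca1, was at 13.2, 21.2 and 24.2 RPM in HF and 17, 10.1 and 11.6 RPM in LF+CR and was not called (0.55, adjusted p = 0.123). Its LF mean, 5.69 ± 0.613 RPM, lay below all 6 of these libraries, and its HF+CR mean was 19.5 ± 4.06 RPM. Without LF+CR 1, and likewise without HF 2, 4 members of the list were called higher and none lower. Each of those fits called 15 of all 351 miRNAs, all higher.

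Of the 17 miRNAs tied to insulin action and glucose, 3 were called higher, near the background of 20.2%, 3 were called lower (background 1.99%), and the median was -0.13. The lower ones were miR-182-5p, miR-29a-3p and miR-29c-3p. miR-103-3p, encoded in introns of Pank2 and Pank3, was higher by 0.62 (SE 0.17, adjusted p = 0.0183) and miR-107-3p, encoded in an intron of Pank1, by 0.75 (SE 0.19, adjusted p = 0.0141). The printed sequences of these 2 differ only near the 3′ end, so reads could have been split between them. let-7b-5p was higher by 0.85 (adjusted p = 0.0141). After rescaling miR-103-3p, miR-107-3p and let-7b-5p stood at 0.23, 0.36 and 0.45, and none was called. On that scale 5 members of the list were called lower (background 6.27%), and the list median was -0.52. Of this list 1 member was called higher without LF+CR 1 and none without HF 2, and none was called lower in either fit. Each of those fits called 15 of all 351 miRNAs, all higher.

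Members of the let-7 seed family, which represses growth factor and insulin signalling messages, did not move as a unit. Of 9 tested, 4 were called higher (background 20.2%): let-7d-5p (0.52), miR-98-5p (0.55), let-7c-5p (0.73) and let-7b-5p. let-7e-5p, cut from a cluster with miR-99b and miR-125a, had a difference of -0.94 (adjusted p = 0.0544) and was called lower after rescaling, at -1.33 (adjusted p = 0.00712). Rescaling also turned the family's median from 0.21 to -0.18, and none of the 9 was then called higher. miR-99b-5p (-0.56) and miR-125a-5p (-0.68) were not called as deposited and were called lower after rescaling, at -0.95 and -1.08. No member of the let-7 family was called without LF+CR 1 or without HF 2, fits that each called 15 of all 351 miRNAs.

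The 5 tested members of the miR-30 family were not called, with a median of -0.15. After rescaling 3 were called lower (background 6.27%), at a median of -0.54. Of the 13 tested miRNAs of the imprinted Dlk1-Dio3 locus, none was called (background 22.2%) and 11 lay below 0 (24.8% of all tested), with a median of -0.57. After rescaling, 1 of the 13 lay above 0 and the list median was -0.90, while 47.9% of all tested lay above 0 and 52.1% below. As deposited, the list median was -0.21 without LF+CR 1 and -0.24 without HF 2. All 7 tested members of the Sfmbt2 families lay above 0, as did 75.2% of all tested, with a median of 1.19. Those 7 hold 2 distinct measurements, since the 5 miR-466 members were listed with identical values. All 5 members of the miR-15/16 family, which restrains the cell cycle, lay above 0 without overlap of the groups (median 0.98, background 41.6%). Of these, miR-15a-5p and miR-16-5p were called higher (background 20.2%), though not after rescaling, without LF+CR 1 or without HF 2. None of the 7 hepatocyte markers was called, as deposited (background 22.2%) or after rescaling (background 5.98% higher and 6.27% lower). miR-122-5p had a difference of -0.29 (adjusted p = 0.117). That miRNA made up 23.0 ± 1.88% of the listed RPM in HF and 27.9 ± 2.02% in LF+CR. The endothelial list (4 tested), the erythroid list (4 tested) and the neuronal list (6 tested) also had no call. At a background of 22.2%, lists this short would hold few calls.

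**Figure D3:**
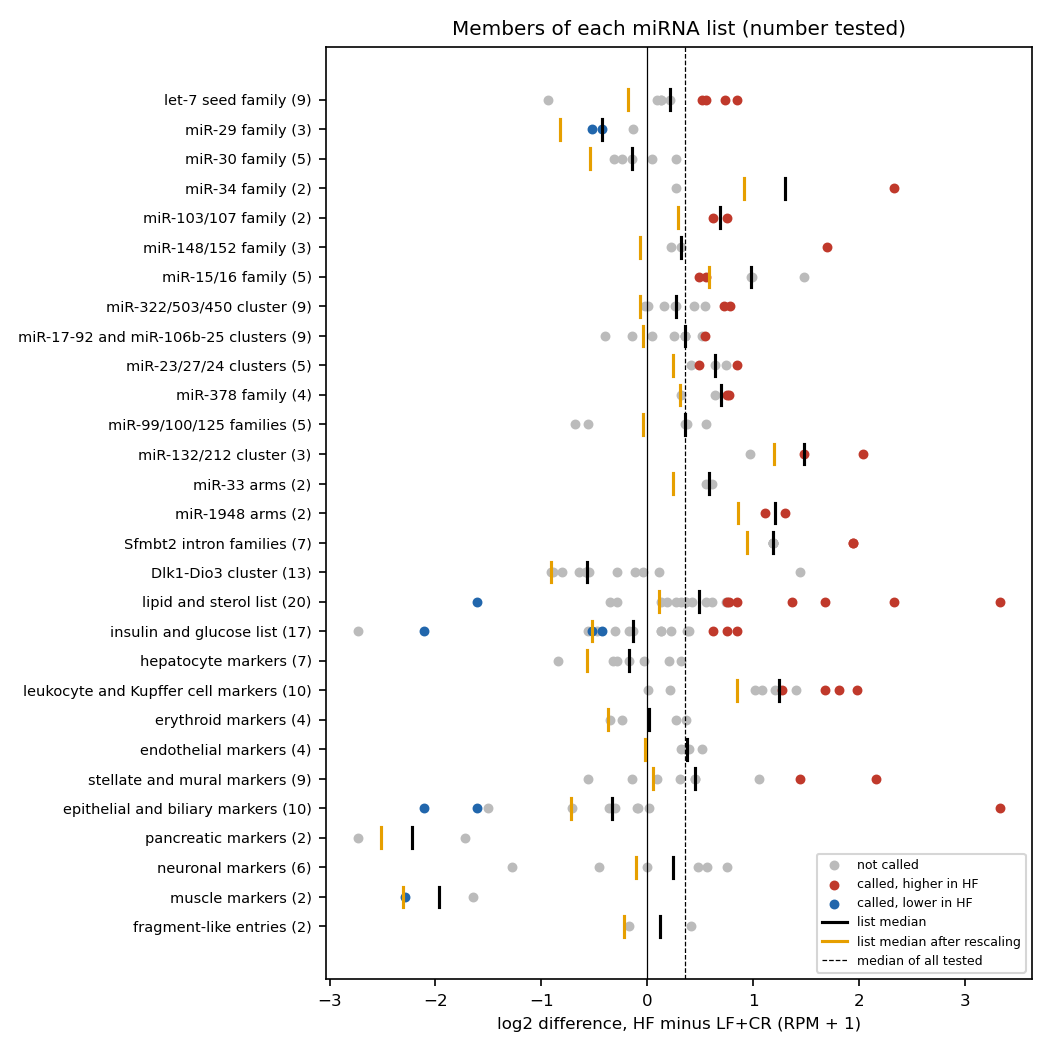
Difference of log2(RPM + 1), HF minus LF+CR, of each tested member of each list (points; red and blue passed the test), with the list median as deposited (black) and after rescaling (orange) and the number of tested members in brackets. The leukocyte and Kupffer cell list moves from 1.24 to 0.85 and the miR-29 family from -0.43 to -0.82, while the median of all miRNAs moves from 0.36 to -0.02.

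Both arms of a hairpin come from 1 transcript, and both were tested for 100 hairpins. For 13 of these both arms were called, and all 13 pairs were higher in HF, as were 91% of all called miRNAs. After rescaling, both arms were called higher for 4 hairpins and lower for 3. In another 24 hairpins 1 arm was called, and no hairpin had arms called in opposite directions. Beside miR-34a, miR-214 and miR-423, the pairs included miR-342, at 1.81 for the 3p arm and 1.91 for the 5p arm, and miR-671, at 1.17 for the 5p arm and 1.06 for the 3p arm. Both arms of miR-1948 were higher, by 1.11 (3p) and 1.30 (5p), though neither was called after rescaling or without LF+CR 1. miR-1948-3p was at 45.1, 33.8 and 35 RPM in HF and 13.1, 19.4 and 19.0 RPM in LF+CR, but its LF mean of 57.5 ± 19.4 RPM and its HF+CR mean of 78.2 ± 17.4 RPM both exceeded the HF mean. Of these 4 groups LF+CR was the lowest for that miRNA, and HF was not the highest.

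The LF and HF+CR groups place the difference between its steps, although each step shares libraries with the comparison of the ends. Over the 71 higher miRNAs, chosen for the difference of the ends, LF exceeded LF+CR by a median of 0.66 and HF exceeded LF by 0.29. Along the other path, HF+CR exceeded LF+CR by 0.71 and HF exceeded HF+CR by 0.34. Over all 351 miRNAs these 4 medians were 0.32, 0.05, 0.38 and 0.05. After rescaling they were 0.35, 0.24, 0.42 and 0.27 over the 71, and -0.02, -0.00014, 0.05 and -0.01 over all 351. Both steps next to LF+CR use the same 3 libraries, so the paths are not independent. For miR-574-5p, LF livers were at 26.4 ± 6.49 RPM, HF livers at 26.5 ± 4.41 RPM and LF+CR livers at 8.22 ± 4.46 RPM. miR-148b-3p took both steps, from 249 ± 91.6 RPM in LF+CR through 483 ± 63.1 in LF and 442 ± 105 in HF+CR to 778 ± 84.5 RPM in HF. miR-29a-3p was at 55495 ± 3938 RPM in LF and 62930 ± 9095 RPM in HF+CR, close to the HF mean of 60050 ± 5488 RPM and below the LF+CR mean of 81127 ± 10003 RPM.

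**Figure D4:**
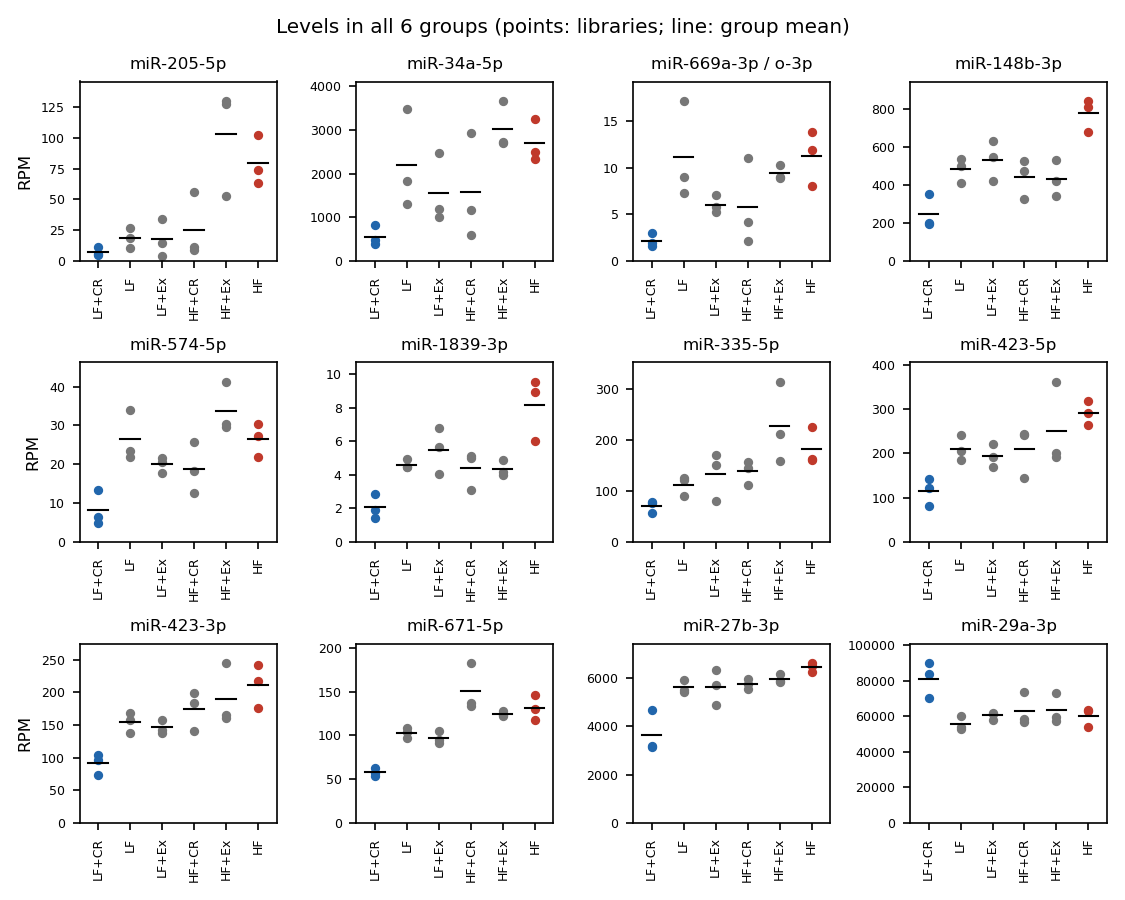
RPM (linear axes from 0) of 12 panels of miRNAs in the 6 groups, the exercised ones included, with 1 point per library and a line at the mean of the 3 libraries of a group; LF+CR is blue and HF red. miR-148b-3p climbs from 249 RPM in LF+CR to 778 RPM in HF with LF at 483 and HF+CR at 442 RPM between them, and the lowest group mean of miR-574-5p is that of LF+CR, 8.22 RPM.

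**Figure D5:**
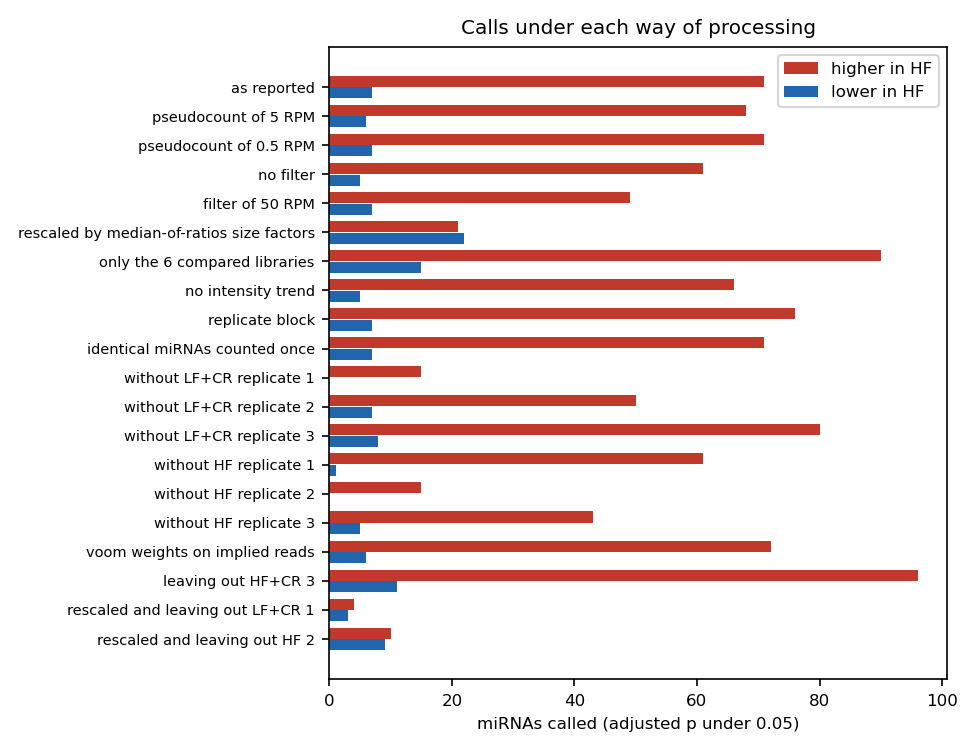
Number of miRNAs called higher and lower in HF, of 351 in the fits with the standard filter, under each alternative setting. Rescaling gives 21 higher and 22 lower in place of 71 and 7, and leaving out LF+CR 1 or HF 2 gives 15 higher and 0 lower.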

How the data were processed

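Small RNA from livers, extracted with Trizol per the labels' protocols, was sequenced in 18 libraries. The deposited values are RPM, per the file headers. The submitters' processing notes name mm10, and an aligner is not given in the sources used here. In each library every value was a whole multiple of 1 step (tolerance 0.001 reads), taken as 1 read. Nothing was listed below 2 reads, so a listed 0 can be 0 or 1 read.

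HF was compared with LF+CR by limma 3.58.1 in R 4.3.3 on log2(RPM + 1) (pseudocount 1 RPM; differences of low miRNAs are understated), with all 18 libraries in 1 fit, 1 coefficient per group, an intensity trend and two-sided p-values, adjusted by Benjamini-Hochberg over the 351 miRNAs; the other 407 were not tested. The fit was tested on simulated data. Samples were grouped by title.

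The members, lists and tests were chosen with earlier results of these data known. Named are called miRNAs, up to 15 higher and 15 lower by size, list members, second arms of named hairpins and the 10 most abundant; others are said to be chosen after their values were seen. Alternatives were pseudocounts of 0.5 and 5, no filter, a filter of 50 RPM, rescaling, only the 6 compared libraries, no trend, a replicate block, identical miRNAs counted once, and each library left out. voom weights on the implied reads, leaving out HF+CR 3, and rescaling with a library left out were chosen after seeing the data.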

Additional observations from a re-analysis of the deposited data

How the results depend on the processing

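The counts of calls were 78 in all, 71 higher and 7 lower in HF. After rescaling by size factors they were 43, 21 and 22, with 28 shared. The 6 compared libraries alone gave 15 lower, and leaving out HF+CR 3, a library of 2.90 megareads, gave 11 lower. Rescaled and without LF+CR 1 they were 7, 4 and 3; rescaled and without HF 2 they were 19 calls, 10 of them higher. Leaving out 1 library at a time gave 15 to 88 calls, 15 to 80 higher and 0 to 8 lower. At 0 lower calls (without LF+CR 1 or HF 2) the differences of all 7 stayed below 0, which had to follow where the groups did not overlap. Both pseudocounts, both filters, the fit without a trend, identical miRNAs counted once and voom weights stayed within 1.5 times of each count. The members behind the lower count still changed. With no filter, miR-1a-3p, miR-96-5p, miR-29c-3p and miR-29a-3p were not called, and without a trend miR-1a-3p and miR-29a-3p were not. No named miRNA reversed, which had to follow for those without overlap of the groups when 1 library was left out. The edgeR test planned for reads was not run, because the listed values lack single reads. Same-numbered HF and LF+CR libraries did not deviate together (correlations 0.08, 0.25 and -0.01; own number best in 1 of 3), and a replicate block gave 83 calls, 76 higher and 7 lower, 77 of them shared. miRNAs of a few RPM rest on few reads (miR-669a-3p: a mean of 14.7 in LF+CR).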

Other observations

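With no filter on level, 8 further miRNAs passed the test that had been too low for it. miR-670-5p was listed at 0 in all 3 LF+CR libraries and at 1.37, 1.90 and 1.54 RPM in HF (adjusted p = 0.00339), where the HF values stand for a few reads each. miR-129-1-3p was at 2.28, 6.19 and 3.39 RPM in HF and 0.378, 0.315 and 1.14 RPM in LF+CR (adjusted p = 0.0254). miR-329-5p, of the Dlk1-Dio3 locus, was at 0.608, 0 and 0.308 RPM in HF and 4.66, 1.58 and 1.90 RPM in LF+CR (adjusted p = 0.0423). Rescaling added 15 calls, all lower in HF. They included miR-101a-3p (-0.88), miR-338-3p (-0.86), miR-193b-3p (-0.97) and miR-872-5p (-0.77), none of them called as deposited; these and the 3 above were named after their values were seen.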
